A study of Mus musculus with 4 samples.

Results

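The 9 genes described here encode proteins that the airway lining releases or uses against inhaled particles, microbes and chemicals. They are Scgb1a1, Scgb3a1, Scgb3a2, Cyp2f2, Muc5b, Reg3g, Bpifa1, Wfdc2 and Slpi. They were chosen by name: every array probe annotated to one of these symbols, or to an older synonym such as Plunc for Bpifa1, was taken. This gave 10 probes of the 41174 gene probes on the array, for 9 of 27606 gene names.

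RNA came from alveolar type II cells, the surfactant-making cells of the alveolus, which had been flow-sorted from dissociated lungs of female mice. The 4 groups were wild-type (WT) mice without tumor, WT mice with tumor, Tlr3-/- mice without tumor and Tlr3-/- mice with tumor. Tumor-bearing mice had received Lewis lung carcinoma, a mouse lung cancer line, under the skin 2 weeks earlier, so the tumor lay outside the lung. Tlr3 encodes an endosomal receptor for double-stranded RNA, and the labels give no strain, no age, no design of the Tlr3 allele and no number of mice per RNA sample. The design asks which transcripts of these cells differ with a distant tumor and whether that depends on Tlr3.

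In the conducting airways, club cells secrete the secretoglobins and detoxify chemicals with cytochrome P450 enzymes, goblet and other mucous cells make gel-forming mucins, and several epithelial cell types release antimicrobial proteins and antiproteases. Alveolar type II cells share some of these products, and cells at the junction of airway and alveolus can carry markers of both. A bulk sample of sorted cells gives 1 level per gene, in which fewer cells of a type and less RNA per cell cannot be told apart.

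Each group was 1 one-colour array, so a difference below describes a pair of arrays, has no replicate check and carries no p-value. A level is the log2 processed intensity minus the 75th percentile of that array, and a difference of 1 in this level is 2-fold. A gene was counted as higher or lower when it differed by at least 2-fold and the scanner program flagged it well above background on 1 or both of the compared arrays. The 75th percentile ranged from 524.5 to 852 intensity units, 61.0% to 65.45% of spots were well above background, and no spot was saturated. The arrays lay on 3 slides, of which 1 carried both WT with tumor and Tlr3-/- without tumor. Differences between slides and between groups cannot be told apart. The only measured spread was that of replicate spots within an array, which is not a spread between animals. Over 170 probes spotted repeatedly, the spot standard deviation (SD) was 0.28 log2 units on the WT array without tumor and 0.07 to 0.11 on the other 3. On the WT array without tumor it was 0.34 in columns 1 to 51, where Scgb1a1, Scgb3a1, Scgb3a2, Reg3g, Bpifa1 and Wfdc2 were printed, and 0.11 in columns 52 to 85, where Cyp2f2, Muc5b and Slpi were. The spot SD given beside each difference is that of its columns.

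The targeted gene was dim. Tlr3 read -3.85 and -3.87 on the WT arrays without and with tumor, against -5.36 and -5.21 on the Tlr3-/- arrays, and on the Tlr3-/- array without tumor it was not well above background. The sources used here do not say whether its probe lies in the deleted part. The array labelled Tlr3-/- without tumor went against its label of female mice: 4 of 4 Y-linked genes were well above background there and 0 of 4 on each of the other arrays, and Xist read -3.97 against 3.89 to 4.13. This array enters the tumor comparison in Tlr3-/- cells and the genotype comparison without tumor. The tumor comparison in WT cells and the genotype comparison with tumor do not use it.

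Of the alveolar type II markers, among them surfactant protein genes, 13 of 13 were well above background on all 4 arrays. In the 4 comparisons 0 of 13 differed by 2-fold. Markers of other cells passed the same flag, so the flag alone does not identify the cell type. Of the other club cell genes, 16 of 17 were well above background on all 4 arrays, as were 12 of 12 ciliated cell markers, 6 of 6 basal cell markers, 9 of 9 alveolar type I markers, 7 of 8 alveolar macrophage markers and 4 of 11 neutrophil markers.

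Upstream DNA of the 3 genes that spanned at least 2-fold over the arrays, Reg3g, Bpifa1 and Scgb3a1, is shown first, because these genes varied most and Reg3g followed another order across the 4 groups than Bpifa1 and Scgb3a1, which shared one. Each line gives the 250 bases before the RefSeq transcription start on GRCm38.p6, read 5′ to 3′ on the gene's strand, for Reg3g chr6:78468875-78469124 (minus strand), for Bpifa1 chr2:154142630-154142879 (plus strand) and for Scgb3a1 chr11:49663345-49663594 (plus strand). Capitals mark matches to the motifs searched.
Reg3g: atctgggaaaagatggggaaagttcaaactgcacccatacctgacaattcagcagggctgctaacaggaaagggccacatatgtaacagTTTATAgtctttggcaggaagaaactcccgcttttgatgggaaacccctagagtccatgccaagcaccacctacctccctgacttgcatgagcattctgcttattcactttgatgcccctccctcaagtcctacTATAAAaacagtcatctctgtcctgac
Bpifa1: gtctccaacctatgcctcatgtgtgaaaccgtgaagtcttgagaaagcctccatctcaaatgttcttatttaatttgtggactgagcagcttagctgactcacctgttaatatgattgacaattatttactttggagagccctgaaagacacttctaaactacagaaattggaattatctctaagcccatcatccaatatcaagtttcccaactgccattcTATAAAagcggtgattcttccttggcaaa
Scgb3a1: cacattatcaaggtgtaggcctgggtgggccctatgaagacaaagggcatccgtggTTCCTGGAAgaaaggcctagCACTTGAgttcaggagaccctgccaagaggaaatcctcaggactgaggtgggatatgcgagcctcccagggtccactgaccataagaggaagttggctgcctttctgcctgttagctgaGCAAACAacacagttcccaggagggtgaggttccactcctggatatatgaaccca

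RefSeq windows were searched for 6 of the 9 genes (Scgb3a1, Cyp2f2, Reg3g, Bpifa1, Wfdc2 and Slpi). No window was at hand for Scgb1a1 and Muc5b, and Scgb3a2 was left out of the search. Both strands were searched for TATAAA (a core promoter element), TTCNNNGAA (the STAT half-site pair), TTGCNNAA (C/EBP), TGTTTNC (FOXA) and CACTTNA (NKX2 factors such as Nkx2-1). Reg3g and Bpifa1 each held TATAAA close to the start, its first base lying 27 bases before it in Reg3g and 29 in Bpifa1, and Reg3g held a reverse-strand TATAAA whose first base was 161 bases before the start. Of 32851 windows of this length, 12.37% held TATAAA. Scgb3a1 held no TATAAA and had 1 match each to the STAT (share of all windows 7.02%), NKX2 (10.06%) and FOXA (17.84%) patterns, none overlapping another. In the remaining windows, Cyp2f2 held 1 NKX2 match, Slpi 1 C/EBP match (9.56% of all windows), and Wfdc2 none. A match describes letters in the window and is not evidence that a factor binds there.

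Reg3g varied most of the 9 genes. It encodes a secreted C-type lectin that kills Gram-positive bacteria, best known from the gut. Its probe (mm9 chromosome 6, 78416420 to 78416479, minus strand) gave levels of 2.06 in WT cells without tumor and 4.72 in WT cells with tumor. In Tlr3-/- cells the levels were 0.13 without tumor and 0.22 with tumor. The processed intensities behind these levels were 2190, 19900, 785 and 989 in the same order. The WT tumor array stood far above the others, the WT array without tumor came next, and the 2 Tlr3-/- arrays lay within 2 spot SDs of each other. With tumor, Reg3g was 6.32-fold higher in WT cells (log2 difference 2.66, spot SD 0.34), the 29th highest difference among 16176 genes well above background on both arrays. In Tlr3-/- cells the tumor difference was 0.08 (spot SD 0.10). Between genotypes it was 3.81-fold lower in Tlr3-/- cells without tumor (-1.93, spot SD 0.34) and 22.7-fold lower with tumor (-4.51, spot SD 0.12). The last was the 4th lowest of 16967 differences. The spot sat where the program's correction for uneven hybridisation had a factor of 0.778 on the WT array without tumor and 1.08 to 1.15 on the others. Gene spots within 10 rows and 10 columns of it had median differences of -0.01 with tumor in WT cells and -0.04 between genotypes without tumor. Around the 9 genes these medians ranged from -0.18 (Scgb1a1) to 0.18 (Scgb3a1) and from -0.27 to 0.20 (the same 2 genes). They use intensities that already carry the correction, so they do not check it.

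The other Reg genes next to Reg3g on chromosome 6 gave no level to compare. Reg1, Reg2 and Reg3a, its nearest neighbours on 1 side, were not well above background on any of the 4 arrays, nor was Reg3b. Among the 15789 other genes bright enough on every array, the profiles nearest to that of Reg3g belonged to Rbm45, Fanca and Ooep, at distances of 1.32, 1.63 and 1.65 log2 units over the 4 arrays, after each gene was centred on its own mean. For 7 of the 9 genes the nearest profile lay within 0.08. Distances grow with the span of a profile, and Reg3g had the widest.

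Bpifa1, also called SPLUNC1 or Plunc, encodes an abundant airway surface protein that binds lipid and bacterial products and regulates airway fluid. Its probe mapped over 421 bases of mm9 chromosome 2 (153973411 to 153973831, plus strand). The level was 4.76 in WT cells without tumor, 3.50 in WT cells with tumor, 1.91 in Tlr3-/- cells without tumor and 3.61 in Tlr3-/- cells with tumor (processed intensities 14200, 8550, 2690 and 10400). The 2 tumor arrays lay within 2 spot SDs of each other, with 1 array without tumor above them and the other below. With tumor, Bpifa1 was 2.39-fold lower in WT cells (-1.25, spot SD 0.34) and 3.25-fold higher in Tlr3-/- cells (1.70, spot SD 0.10). Without tumor it was 7.21-fold lower in Tlr3-/- than in WT cells (-2.85, spot SD 0.34), the 14th lowest of 15919 differences, and with tumor the genotypes differed by 0.11 (spot SD 0.12). The low value was on the array with Y-linked transcripts, whose part in the difference was not tested.

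Bpifb1, a related lipid-binding secretory gene that is the second gene along from Bpifa1 on chromosome 2, had a like order of arrays in part. It differed by -0.59 with tumor in WT cells, was 2.09-fold higher with tumor in Tlr3-/- cells (1.06), was 6.23-fold lower in Tlr3-/- cells without tumor (-2.64) and differed by -0.99 between genotypes with tumor. Bpifa5, the gene between them, differed by 0.46, -0.14, 0.23 and -0.38 in the same order. Bpifa2 and Bpifa3 on the other side were not well above background on any array. The nearest profiles to Bpifa1 were those of Gm9558, a probe without a gene symbol, and Gclc (a subunit of the enzyme that starts glutathione synthesis), at distances of 0.49, 0.67 and 0.78.

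**Figure D1:**
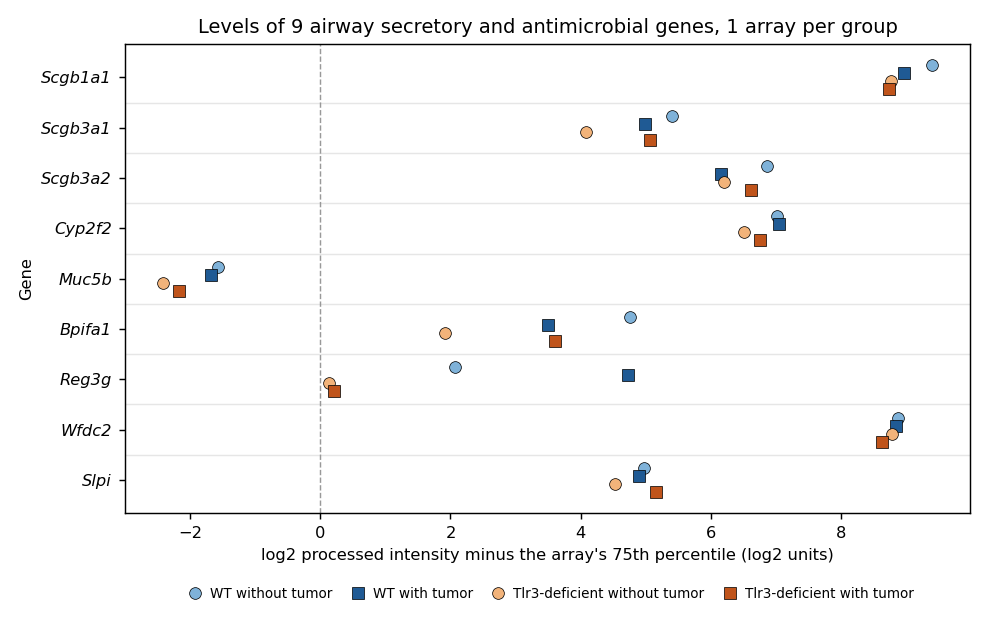
Level of each of the 9 genes (log2 processed intensity minus the array's 75th percentile, horizontal axis) on the 4 arrays, 1 symbol per array, with no replicate and so no error bar. Reg3g runs from 0.13 to 4.72 and Bpifa1 from 1.91 to 4.76, whereas the 4 Wfdc2 symbols lie between 8.64 and 8.88.

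The 3 secretoglobins, small secreted proteins of the uteroglobin family, were brightest on the WT array without tumor. Scgb1a1, the classical club cell product (mm9 chromosome 19, 9158197 to 9158256, minus strand), read 9.40, 8.98, 8.77 and 8.74 on the WT arrays without and with tumor and the Tlr3-/- arrays without and with tumor. Each step in that order lay within 2 spot SDs. Scgb3a1 (mm9 chromosome 11, 49478489 to 49478548, plus strand), which marks a subset of airway secretory cells, read 5.41, 4.99, 4.08 and 5.07. The array labelled Tlr3-/- without tumor was lowest, beyond 2 spot SDs of the next, and the other 3 lay within 2 spot SDs of their neighbours. Scgb3a1 was therefore 2.52-fold lower in Tlr3-/- than in WT cells without tumor (-1.33, spot SD 0.34). Its tumor difference in Tlr3-/- cells was 1.99-fold (spot SD 0.10), just under the 2-fold line, and -0.42 in WT cells (spot SD 0.34). With normexp background correction, the genotype difference without tumor was -0.84, under 2-fold. That setting started from raw spot means and so also left out the program's correction for uneven hybridisation. The factor of that correction at this spot was 0.85 on the WT array without tumor and 1.17 on the Tlr3-/- array without tumor. The parts of the 2 changes were not tested separately.

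Scgb3a2, a target of the lung transcription factor Nkx2-1 (mm9 chromosome 18, 43926928 to 43926987, plus strand), read 6.86, 6.15, 6.21 and 6.63 in the same order of arrays. The gap between 6.63 and 6.21 exceeded 2 spot SDs, and those on either side of it did not. No Scgb3a2 difference reached 2-fold in any of the 4 comparisons, the widest being -0.71 with tumor in WT cells (spot SD 0.34) and -0.65 between genotypes without tumor. Feature Extraction's correction factor at this spot was 0.636 on the WT array without tumor, against 0.866 to 0.893 on the others. Most other secretoglobins were not well above background. Of 6 measured, Scgb1c1 was well above background on all 4 arrays. It read 3.99, 3.79, 3.65 and 3.80 in the same order, with differences from -0.34 to 0.15. Scgb2b27 was well above background on 1 array, and the other 4 on none.

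Cyp2f2, the club cell P450 that activates naphthalene (mm9 chromosome 7, 27918570 to 27918629, plus strand), read 7.02, 7.05, 6.52 and 6.76. Both WT arrays stood above both Tlr3-/- arrays, with a gap of more than 2 spot SDs between the lower WT and the higher Tlr3-/- value. The genotype difference was -0.50 without tumor (spot SD 0.13) and -0.29 with tumor (spot SD 0.07), and the tumor differences were 0.03 and 0.24. Cyp2a5 and Cyp2a22, P450 genes within 3 genes of Cyp2f2, were also lower on the Tlr3-/- array without tumor than on the WT array without tumor, 1.96-fold for Cyp2a5 and at least 4.27-fold for Cyp2a22, and differed from it in size or sign in the other comparisons. Cyp2a5 was 2.65-fold lower with tumor in WT cells, 2.39-fold higher with tumor in Tlr3-/- cells and 3.23-fold higher in Tlr3-/- than in WT cells with tumor. Cyp2a22, singled out after its values were seen, was 4.46-fold lower, at least 3.35-fold higher and 3.50-fold higher in these comparisons. The Cyp2a genes are close in sequence, and binding of one transcript to another's probe was not tested.

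Muc5b, the gel-forming mucin of the normal airway (mm9 chromosome 7, 149058735 to 149058794, plus strand), was the dimmest of the 9 spots and still well above background on all 4 arrays. It read -1.57, -1.68, -2.42 and -2.18, from processed intensities of 177, 235, 134 and 188. Both WT arrays were again above both Tlr3-/- arrays by more than 2 spot SDs. The genotype difference was -0.85 without tumor (1.80-fold, spot SD 0.13) and -0.50 with tumor (1.41-fold, spot SD 0.07), and the tumor differences were -0.11 and 0.24. Muc5ac, the mucin gene beside it that is linked to goblet cell change, differed by 0.96 and 0.57 with tumor in WT and Tlr3-/- cells, by -0.66 between genotypes without tumor, and was 2.07-fold lower in Tlr3-/- cells with tumor (-1.05).

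Wfdc2 and Slpi encode small secreted proteins with whey acidic protein domains, and Wfdc2 varied least of the 9 genes. Wfdc2, also known as HE4 (mm9 chromosome 2, 164393935 to 164393994, plus strand), read 8.88, 8.85, 8.79 and 8.64, and its differences ranged from -0.21 to -0.03. All of its neighbouring values lay within 2 spot SDs, and quantile normalization turned the sign of its tumor difference in WT cells and of its genotype difference without tumor. Slpi, an inhibitor of neutrophil elastase with antimicrobial activity (mm9 chromosome 2, 164179849 to 164179908, minus strand), read 4.98, 4.89, 4.53 and 5.16. Only the lowest, on the array labelled Tlr3-/- without tumor, was more than 2 spot SDs from its neighbour. With tumor, Slpi differed by 0.63 in Tlr3-/- cells (1.55-fold, spot SD 0.11) and by -0.08 in WT cells (spot SD 0.11), a value that turned above 0 in 4 of 9 alternative settings. A second Slpi probe was not well above background on any array. It lies 5214 bases from the bright one on mm9, although the RefSeq gene is 2438 bases long, and it was not used for the level.

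**Figure D2:**
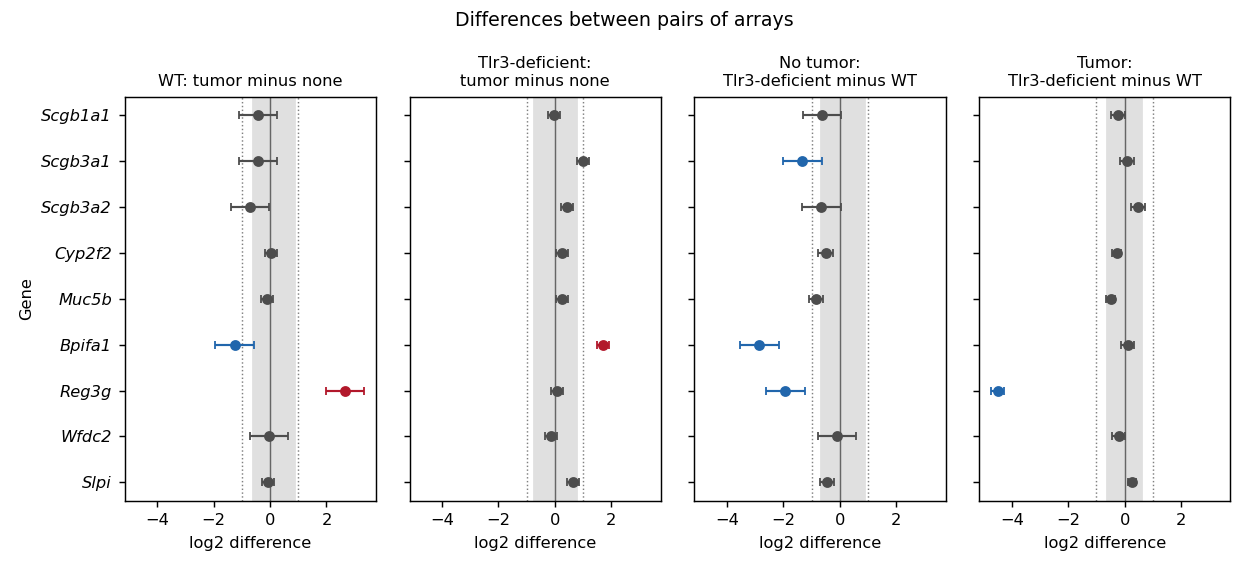
Log2 difference of each gene in the 4 comparisons, with bars of 2 spot SDs (spots, not animals), dotted lines at 2-fold, and grey shading for the range from the 5th to the 95th percentile of all genes well above background on both arrays. Red and blue points are at least 2-fold higher or lower, and Reg3g with tumor at -4.51 lies farthest from 0.

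In WT cells, 1 of the 9 genes was at least 2-fold higher with tumor (Reg3g) and 1 was at least 2-fold lower (Bpifa1). Among all 17975 genes tested, 5.6% were higher and 1.57% lower, 7.17% in all. Among the 9 genes 7 had a difference below 0, of which Wfdc2 and Slpi turned above 0 with quantile normalization, and the median was -0.11 against 0.00 over all genes. The median of the other club cell genes was -0.46, and 1 of 17 was higher (Krt15, 3.40-fold) and 2 lower (Cyp2a5 and Cyp2b10, 2.08-fold). For ciliated cell markers it was 0.59, and 0 of 12 passed 2-fold. Goblet and mucus genes had 2 of 13 higher and 0 lower, with a median of 0.23. The higher ones were Agr2, a disulfide isomerase needed for mucin folding (3.02-fold), and Gp2, a glycoprotein receptor for bacteria (2.39-fold).

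Basal cell markers moved with Reg3g across the WT arrays and between genotypes with tumor. With tumor in WT cells 5 of 6 were at least 2-fold higher, at a list median of 1.26, led by Aqp3 (4.89-fold), a water and glycerol channel, and the keratins Krt5 (2.66-fold), Krt14 (2.43-fold) and Krt17 (2.36-fold). For the summed level of a list, the levels of its genes were added on the linear scale and the sum was put back on log2. For basal cell markers it was 0.93 in WT cells without tumor and 2.48 with tumor, and 0.91 and 0.72 in Tlr3-/- cells without and with tumor. Between genotypes with tumor 4 of 6 were lower in Tlr3-/- cells, by 3.51-fold to 4.75-fold, with a median of -1.82. In Tlr3-/- cells 1 of 6 was lower with tumor (Krt14, 3.48-fold), and without tumor 0 of 6 differed by 2-fold between genotypes, where Reg3g did. The part of these cells in the Reg3g difference was not tested.

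**Figure D3:**
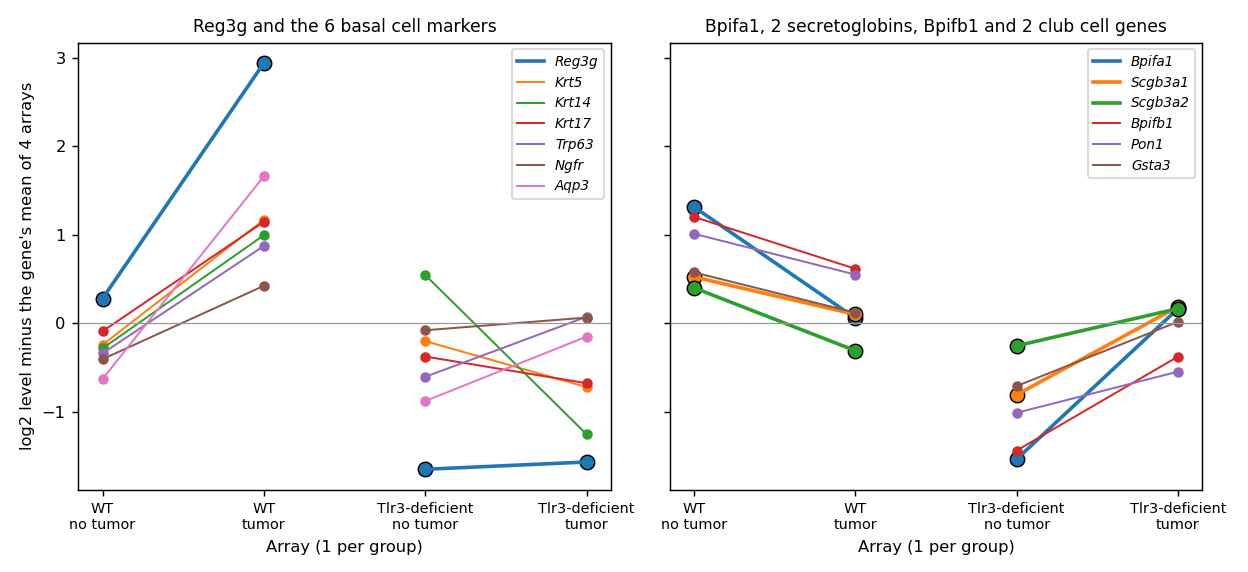
Log2 level minus the gene's own mean of the 4 arrays, for Reg3g with the 6 basal cell markers (left) and for Bpifa1, Scgb3a1 and Scgb3a2 with Bpifb1 and the club cell genes Pon1 and Gsta3 (right), 1 array per point and lines joining arrays of 1 genotype. On the left the WT tumor array is highest for Reg3g and the 6 markers, and on the right the array labelled Tlr3-/- without tumor is lowest for Bpifa1, Scgb3a1, Bpifb1, Pon1 and Gsta3, of which the last 3 were chosen after their values were seen. Of the 17 other club cell genes 8 are lowest and 2 highest on that array.

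Neutrophil markers were higher in both tumor comparisons, in 11 of 11 genes in WT cells and 10 of 11 in Tlr3-/- cells. Their summed level was 2.05 and 1.90 on the arrays without tumor (WT, then Tlr3-/-) and 6.83 and 6.19 with tumor. Most of the sum with tumor came from S100a9, which read 6.39 and 5.77 there. Reg3g read 4.72 on the WT and 0.22 on the Tlr3-/- tumor array, and the part of neutrophils in this difference was not tested. Between genotypes 1 neutrophil marker was lower in each comparison, Ltf, and 0 were higher. Alveolar macrophage markers had 2 of 8 higher with tumor in WT cells, 3 with tumor in Tlr3-/- cells, and between genotypes 1 higher without tumor and 2 with tumor. Alveolar type I markers had 3 of 9 lower with tumor in WT cells and 6 of 9 in Tlr3-/- cells. Of the other antimicrobial and defence genes 7 of 27 were higher with tumor in WT cells and 1 lower, with a median of 0.15. Ltf, the iron-binding lactoferrin (8.05-fold), and Camp, the cathelicidin (at least 5.48-fold), are also on the neutrophil list. Pglyrp1, a peptidoglycan-binding protein of neutrophil granules, was 3.60-fold higher, and Dmbt1, a mucosal scavenger receptor, at least 3.73-fold. Sprr1a, a cornified envelope protein, was 2.13-fold lower.

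In Tlr3-/- cells, Bpifa1 was the 1 member of 9 at least 2-fold higher with tumor, and 0 were lower. Over 18151 genes, 4.53% were higher and 3.88% lower (8.41% in all). Among the 9 genes 7 had a difference above 0, and the median was 0.24 against 0.00 over all genes. Scgb1a1, at -0.02, turned above 0 with quantile normalization. Other club cell genes had 1 of 17 higher (Cyp2a5) and 0 lower, with a median of 0.17. Of the goblet and mucus genes 4 of 12 were higher and 0 lower, with a median of 0.46, namely Clca1 (2.87-fold), a secreted regulator of mucus, Gp2 (at least 2.83-fold), Fcgbp (2.15-fold), a mucin-associated protein, and Muc20 (2.13-fold). Other defence genes had 8 of 24 higher and 3 lower. Leading the higher ones were Ltf (9.73-fold), Pigr (8.31-fold), the carrier of IgA across epithelium, Camp (at least 8.16-fold) and Chil4 (5.79-fold), a chitinase-like protein. The 3 lower ones were the whey acidic protein genes Wfdc15b (at least 4.06-fold), Wfdc1 (2.19-fold) and Wfdc12 (2.18-fold), whereas Wfdc21, of the same kind, was 2.84-fold higher. Among ciliated cell markers 2 of 12 were higher (Sntn, 2.42-fold, and Rsph1, 2.07-fold), with a median of 0.66.

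Between genotypes without tumor all 9 differences were below 0, that is lower on the array labelled Tlr3-/-, except that Wfdc2 turned above 0 with quantile normalization and in the value table, and 3 genes were lower by at least 2-fold (Bpifa1, Reg3g and Scgb3a1), where 2.34% of 17636 genes were lower, 5.89% higher and 8.23% past 2-fold in all. Their median was -0.65, against -0.04 over all genes. For the other club cell genes the median was -0.60, and 3 of 17 were lower, among them Pon1 (4.06-fold), an esterase, and Gsta3 (2.44-fold), a glutathione transferase. Upk3a, a uroplakin of a club cell subset, was the 1 higher, at least 3.12-fold. Goblet and mucus genes had 3 of 12 lower (Clca1, 4.55-fold, Tff2, 2.79-fold, a trefoil peptide, and Fcgbp, 2.25-fold), and a median of -0.54. Ciliated cell markers had a median of -0.50 with 1 of 12 lower (Ccdc153, 2.69-fold). Basal cell markers lay on both sides, from -0.29 for Krt17 to 0.83 for Krt14, and 0 of 6 passed 2-fold.

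The summed level of the other club cell genes was 9.69 on the WT array without tumor and 9.46 on the Tlr3-/- array without tumor, and that of the ciliated markers 6.32 and 5.99. Most of the club cell sum came from Cbr2, which read 9.13 and 9.03 and differed by -0.10. For alveolar type II markers the median difference was -0.30, with 0 of 13 past 2-fold, and 3 of 9 alveolar type I markers were higher (median 0.89), among them Igfbp2 (2.62-fold). The part of airway cell content, of sex-linked differences and of the noisier WT array in this comparison was not tested. Other defence genes split evenly, 3 of 20 higher and 3 lower, with Pglyrp1 5.81-fold higher and Bpifb1 6.23-fold lower at the ends.

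Between genotypes with tumor, 1 of 9 genes was at least 2-fold lower in Tlr3-/- cells (Reg3g) and 0 were higher, against 2.64% lower, 2.93% higher and 5.57% in all among 18265 genes. The other 8 differed by -0.50 to 0.47, and the median of the 9 was -0.21 against -0.04 over all genes. This comparison uses neither the array with Y-linked transcripts nor the noisier WT array. Krt15, a keratin of basal and club cells, was 3.02-fold lower in Tlr3-/- cells, and Pon1 2.14-fold lower, whereas Cyp2a5 and Upk3a (2.64-fold) were higher, so that 2 of 17 other club cell genes lay on each side. Of the goblet and mucus genes 4 of 13 were lower and 0 higher, with a median of -0.40, namely Agr2 (2.85-fold), Tff2 (2.84-fold), Clca1 (2.20-fold) and Muc5ac. Of the ciliated cell markers 1 of 12 was lower (Ccdc153, 2.91-fold), with a median of -0.36. Other defence genes had 3 of 28 higher and 4 lower. The lower ones were Wfdc12 (log2 difference -2.0), Ltf (2.86-fold), Dmbt1 (2.66-fold) and Defb1, an epithelial defensin (at least 2.02-fold), and Pglyrp1 (4.85-fold), Chil4 (3.98-fold) and Defb2 (at least 2.53-fold) were higher.

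**Figure D4:**
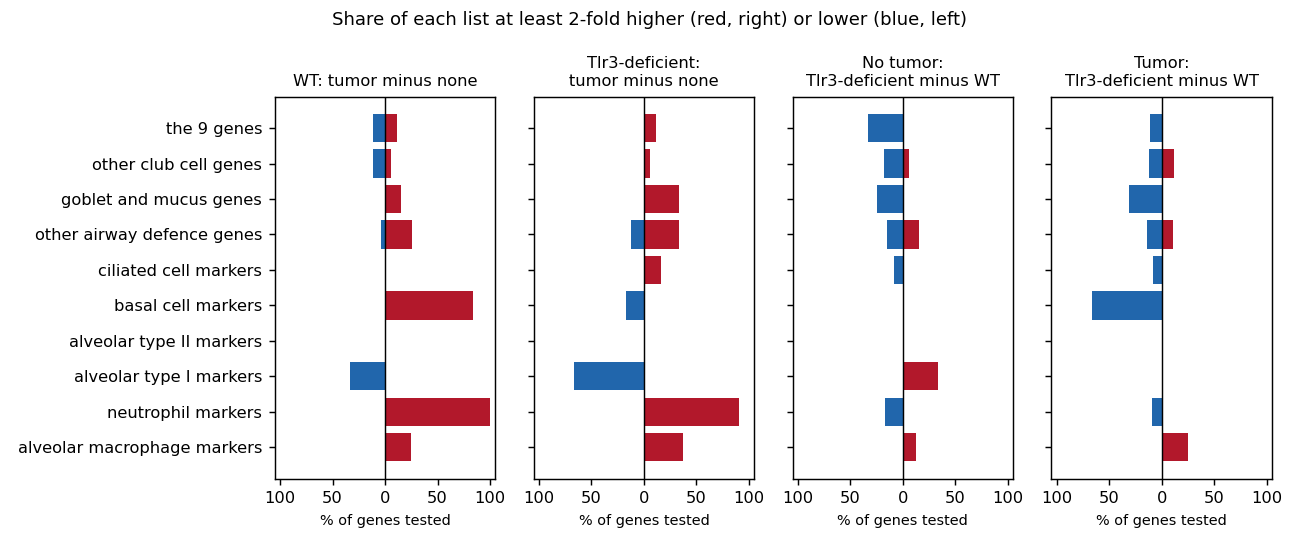
Share of each gene list, among its members tested, at least 2-fold higher (red, to the right) or lower (blue, to the left) in the 4 comparisons, with 1 array per group. The 9 genes have 3 of 9 lower between genotypes without tumor, and basal cell markers have 5 of 6 higher with tumor in WT cells and 4 of 6 lower in Tlr3-/- cells with tumor.

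Set against each other, the 2 tumor differences were unlike for 4 of the 9 genes. The tumor difference in Tlr3-/- cells minus that in WT cells was -2.58 for Reg3g (spot SD 0.35), 1.42 for Scgb3a1, 1.13 for Scgb3a2 and 2.95 for Bpifa1. Of the 15798 genes bright enough on every array, 2.16% passed 2-fold in the higher direction, 4.47% in the lower, and 6.63% in all. With 1 array per group these values rest on all 4 arrays at once and were not tested. For Scgb1a1, Cyp2f2, Muc5b, Wfdc2 and Slpi the value lay between -0.12 and 0.71.

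Over the 4 arrays together, 3 of the 9 genes (33.33%) spanned at least 2-fold, against 15.39% of the 15798 genes, and the median span was 0.71 log2 units against 0.49. Without the array labelled Tlr3-/- without tumor, 2 of the 9 (22.22%, Reg3g and Bpifa1) and 9.63% of all genes did so, with median spans of 0.61 and 0.39.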

How the data were processed

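Gene expression was measured on 4 one-colour (Cy3) Agilent mouse arrays of design 014868, 1 per group. The deposited scanner files hold spot intensity on a linear scale, extracted with Agilent Feature Extraction 10.7.3.1 under protocol GE1_107_Sep09, per the file headers, background-subtracted and detrended within each array but not scaled between arrays. The series' value table, deposited by the authors, is on a log2 scale. The sources used here do not state its scaling, its column medians were 6.31 to 6.32, its direction matched the scanner files (r = 0.999 to 1.00 across probes, which are not replicates), and it served as an alternative.

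Processed intensity was put on a log2 scale, and each array's 75th percentile over gene probes was subtracted (Python 3.11.15, numpy 2.4.6, pandas 2.3.3). Spots with outlier flags were left out, spots of a probe were averaged, and a gene took its probe with the highest mean. A probe was well above background where at least 50% of its usable spots were flagged so. Where only 1 of 2 arrays passed, the fold is a bound ("at least"): the brighter level over whichever was higher on the dim array, that probe's level or the lowest level of any probe well above background. Of 41174 gene probes, 27668 were named through their accession in a RefSeq table of GRCm38.p6, and the others kept the file's name. Probe coordinates are the array annotation's, on mm9. Promoter windows are RefSeq's on GRCm38.p6. The calling rule was tried on simulated data with less noise than replicate spots showed on the WT array without tumor. The simulation held no variation between animals, so it does not give the rule's error rate for these data.

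The 9 genes, the lists and the tests were chosen with earlier results of these data known. Named genes were the 9 members, Tlr3, up to 4 list members per comparison and direction in order of size, and the 3 nearest profiles of each member. Neighbouring genes were taken by position. Alternatives were median centring, quantile normalization, normexp with an offset of 50 (limma 3.58.1, R 4.3.3), the mean of all probes, the value table, other filters, outlier spots kept, other fold thresholds, and, chosen after seeing the data, subtraction of the local block median. Normexp started from raw spot means, so that setting also left out the detrending within each array. The number of arrays limits precision, and no p-value was computed. One result of a gene list is not reported here.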

Additional observations from a re-analysis of the deposited data

Results flagged for a closer look

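For 5 of the 9 genes the tumor difference had opposite signs in WT and Tlr3-/- cells, which is what singled them out. The share of all genes with opposite signs was not counted, so 5 of 9 is not a result about these genes as a set. With 1 array per group, none of these differences between genotypes was tested, and the value given is the log2 tumor difference in Tlr3-/- cells minus that in WT cells. It was 2.95 for Bpifa1 (-1.25 in WT, 1.70 in Tlr3-/-), the 19th highest of 15798 genes. For Scgb3a1 it was 1.42 (-0.42 in WT, 0.995 in Tlr3-/-), and for Scgb3a2 1.13 (-0.71 and 0.42). The WT difference was 1.24 spot SDs in size for Scgb3a1 and 2.08 for Scgb3a2. With normexp these WT differences were -0.01 and -0.18. The value was 0.71 for Slpi (-0.08 and 0.63) and 0.35 for Muc5b (-0.11 and 0.24), where the WT differences were about the size of 1 spot SD (0.11). Slpi is the least settled of the 5: its WT difference turned above 0 in 4 of 9 alternatives, so that both genotypes then had the same sign, and the value itself was -0.25 with the mean of all its probes, one of which was not well above background on any array. Each of them rests on the WT array without tumor, whose replicate spots varied most, and on the array labelled Tlr3-/- without tumor, which held Y-linked transcripts.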

How the results depend on the processing

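The 11 differences of the 9 genes that passed 2-fold, those between the tumor differences included, were recomputed under 9 alternatives. The filter settings could not move any value of these genes, which were well above background on every array. Nor could the mean of all probes, except for Slpi, the only one with a second probe. Keeping outlier spots could move values only through the array percentile, because each gene's level came from 1 spot. These settings therefore do not check the 11 differences. Their values are still counted in the 99, in the 306 and in each count out of 9 alternatives. Such totals therefore overstate the number of checks made. None of the 99 values changed sign, and 4 fell under 2-fold. The 4 belonged to Scgb3a1 with normexp (-0.84 between genotypes without tumor, 0.93 between the tumor differences) and to Scgb3a2. The Scgb3a2 value between the tumor differences was as low as 0.65. It stayed past 2-fold in 7 of 9, counting the settings that could not check it. Reg3g and Bpifa1 stayed past 2-fold throughout: Reg3g ranged from 2.52 to 3.12 with tumor in WT cells, -2.03 to -1.29 between genotypes without tumor and -4.65 to -4.41 with tumor, and Bpifa1 from -1.40 to -1.13, 1.58 to 1.77 and -2.95 to -2.66 in its differences past 2-fold. Of the 34 other differences, 9 changed sign in 17 of 306 values. Scgb3a1 with tumor in Tlr3-/- cells reached 2-fold with the value table and with the local block subtracted, so that 2 genes were higher instead of 1, each. At 1.5-fold, 2 genes were lower with tumor in WT cells, 3 higher with tumor in Tlr3-/- cells and 6 lower between genotypes without tumor. At 3-fold, 0 were lower with tumor in WT cells. The share of all genes past 1.5-fold or 3-fold was not counted, so counts at these thresholds cannot be set against the 2-fold shares. Between the tumor differences, 1 gene instead of 3 was higher with normexp and at 3-fold. Counts over all genes moved most. With normexp, those higher and lower were 470 and 130 (1006 and 282 in the main setting) for tumor in WT, 411 and 330 (822 and 705) for tumor in Tlr3-/-, 523 and 231 (1039 and 412) between genotypes without tumor and 254 and 185 (535 and 483) with tumor, and 219 (342) higher between the tumor differences. Without a filter on dim probes they were 2080 and 828, 1465 and 1573, 2120 and 1031, 1061 and 1270, and 1518 and 2866 (342 and 706), and with genes above background on both arrays 580 and 172, 501 and 418, 620 and 265, and 326 and 292. The value table gave 637 lower between genotypes without tumor. Median centring moved the median of all genes to -0.15 with tumor in WT cells and to -0.14 between genotypes without tumor. The median of other defence genes with tumor in WT cells was -0.18 with normexp. No paired analysis was possible because each group is 1 array, and for the same reason no array could be left out of a group.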

Other observations

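Of the genes next to the 9 on their chromosomes, 2 antiprotease genes beside Scgb3a2 differed by at least 2-fold where Scgb3a2 did not. Spink1, a trypsin inhibitor, exceeded its level in WT cells without tumor at least 4.12-fold in WT cells with tumor and at least 4.07-fold in Tlr3-/- cells without tumor, and these are bounds because its signal in WT cells without tumor was too dim. Scgb3a2 differed by -0.71 and -0.65 in these comparisons. Spink5, an epithelial inhibitor of kallikreins, was 2.69-fold lower in Tlr3-/- than in WT cells without tumor (-1.43) and differed by -0.84 with tumor in WT cells. Beside Slpi, the seminal vesicle gene Svs5 was at least 2.16-fold higher with tumor in Tlr3-/- cells. These genes were singled out from the list of neighbours after their values were seen.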
